A study of Homo sapiens with 9 samples.

Results

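The glucocorticoid receptor gene NR3C1 and 8 genes that the receptor is known to regulate (FKBP5, TSC22D3, SGK1, PER1, KLF9, ERRFI1, ZFP36 and CRISPLD2) were followed in SW1783, an established human astrocytoma cell line. These 9 genes were picked by name from the 60675 genes of the count table, with earlier results of these data known, and all 9 passed the filter on low counts. The cells received a 70% ethanol extract of Poria Cocos, a fungus, or of Atractylodis Rhizoma, a plant rhizome, at 20, 100 or 500 µg/mL for 24 h, with 1 library for each extract and dose, and 3 libraries came from cells given the vehicle DMSO. The sample labels give 0.1% DMSO for vehicle, the series design text gives 2%, and the labels of treated samples give none, so any difference in DMSO and the extract cannot be told apart. Every group grew in L-15 medium with 10% heat-inactivated fetal bovine serum, and no group was labelled as treated with a glucocorticoid. The labels do not say whether steroids were removed from the serum or whether the libraries came from separate cultures, so a p-value here speaks only of how far these libraries spread, and that spread may be technical.

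The glucocorticoid receptor waits in the cytoplasm bound to HSP90 and its partner proteins, and it moves to the nucleus when it binds cortisol. There it raises the transcription of genes near its response elements, and FKBP5, TSC22D3, PER1, KLF9 and SGK1 are widely used as readouts of that activity. Most of these genes also answer other signals: SGK1 answers serum and osmotic stress, PER1 answers cyclic AMP and the circadian clock, ERRFI1 answers growth factors and ZFP36 answers serum and cytokines.

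The DNA just before 3 of the start sites is shown because these genes stood for the 3 patterns found here. SGK1 rose and PER1 fell, while FKBP5 passed the main test of a dose trend with neither extract. In some alternative fits, given below, its Atractylodis slope passed as lower. Each line holds the 250 bases before the RefSeq start site (GRCh38.p14) that had the most annotated transcript starts nearby, read 5′ to 3′ on the gene's own strand. They are chr6:134174867-134175116 for SGK1, chr17:8152405-8152654 for PER1 and chr6:35688916-35689165 for FKBP5, all on the minus strand. Capitals mark motifs found on either strand, with no overlap between them: GC boxes (GGGCGG, or CCGCCC on the other strand) in all 3, the TATA box (TATAAA, here TTTATA on the other strand) in SGK1, CCAAT boxes (CCAAT, or ATTGG on the other strand) in PER1 and FKBP5, and the E-box (CACGTG, the same on both strands) in PER1 and FKBP5.
SGK1: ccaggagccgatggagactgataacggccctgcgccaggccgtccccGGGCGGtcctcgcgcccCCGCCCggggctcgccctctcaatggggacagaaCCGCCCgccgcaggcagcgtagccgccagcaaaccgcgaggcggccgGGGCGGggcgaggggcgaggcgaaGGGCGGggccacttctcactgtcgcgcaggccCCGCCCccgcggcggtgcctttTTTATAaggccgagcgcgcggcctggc
PER1: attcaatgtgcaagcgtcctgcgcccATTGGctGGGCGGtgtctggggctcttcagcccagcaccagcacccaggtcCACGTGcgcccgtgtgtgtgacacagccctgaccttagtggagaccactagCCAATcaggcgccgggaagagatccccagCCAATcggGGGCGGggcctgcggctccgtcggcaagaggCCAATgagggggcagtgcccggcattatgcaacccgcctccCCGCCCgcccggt
FKBP5: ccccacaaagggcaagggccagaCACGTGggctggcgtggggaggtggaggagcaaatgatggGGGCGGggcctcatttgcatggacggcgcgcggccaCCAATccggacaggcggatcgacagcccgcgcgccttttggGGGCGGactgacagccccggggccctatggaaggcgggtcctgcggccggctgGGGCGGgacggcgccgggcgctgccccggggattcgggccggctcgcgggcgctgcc

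The palindromic glucocorticoid response element, with AGAACA and its reverse complement TGTTCT set 3 bases apart, was in 0 of the 21 RefSeq promoter windows of the 9 genes, each running from 250 bases before to 50 bases after a start, and in 0.00285% of all 35116 windows. AGAACA alone was in 2 of the 21 windows, at another start of FKBP5 and of SGK1, and in 14.8% of all windows on either strand. GC boxes were in 14 windows of 8 of the genes (45.0% of all windows), and KLF9 was the gene without one. The E-box, a site that clock factors bind, was in the windows of FKBP5 and PER1 and in 7.26% of all windows. Well-studied response elements of FKBP5 lie in its introns, outside these windows, and a missing match says only that the letters are not in the window.

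Levels are given as CPM, the counts of a gene per 1e6 counts of its library, after TMM scaling of the library totals. A slope is the log2 change per dose step along vehicle, 20, 100 and 500 µg/mL, given ± SE from a fit on 9 libraries with 6 residual degrees of freedom. Each adjusted p is from edgeR's quasi-likelihood test with Benjamini-Hochberg adjustment over 18356 genes, and a gene was called at 0.05. A second slope used the 3 treated doses alone, and single doses were set against vehicle under the assumption that a lone library varies like the vehicle libraries. Library totals ran from 40269665 to 48905536 counts. The 9 genes had between 427 and 11503 counts per library, so counting error was at most 4.84% of a value.

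SGK1 rose with both extracts, and PER1 fell with both. With Poria, 5 of the 9 genes rose with dose (SGK1, TSC22D3, KLF9, ERRFI1 and NR3C1) and 2 fell (PER1 and CRISPLD2), while 20.8% of all genes tested were called (9.16% higher and 11.6% lower). With Atractylodis, 4 rose (SGK1, TSC22D3, ERRFI1 and NR3C1) and 2 fell (PER1 and CRISPLD2), beside 19.0% of all genes called (8.49% higher and 10.5% lower). FKBP5 and ZFP36 passed the test for neither extract. The 9 genes and the comparison lists below were chosen with earlier results of these data known. Their counts beside the shares of all genes are therefore not an independent comparison. The changes were small: the called slopes ran from -0.13 to 0.15, and the highest fold at 1 dose was 1.42, for SGK1 at 500 µg/mL Poria. The median slope of the 9 genes was 0.05 for Poria and 0.04 for Atractylodis, beside 0.00 for all genes tested with each extract. The genes did not move in 1 direction. Both trends share the 3 vehicle libraries, so they are not independent of each other. With the dose taken in µg/mL in place of steps, 1 of the 9 genes was called for Poria (SGK1) and 0 for Atractylodis. Of the 18356 genes tested, 125 were called in that fit for Poria and 67 for Atractylodis. In bulk RNA, fewer cells of a type and less RNA per cell cannot be told apart.

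The shift away from vehicle ran along the GC content of genes across the whole table. Over 18214 genes, Spearman's rho between GC content and the log2 change of treated against vehicle was -0.298, a value across genes and not across replicates. For the slopes within treated doses rho was -0.0574 with Poria and -0.278 with Atractylodis. Of the 9 genes, NR3C1 (39.1% GC), SGK1 (41.1%) and FKBP5 (41.5%) lay below the 25th percentile of tested genes, 42.1%, and PER1 (62.7%) and ZFP36 (57.3%) lay above the 75th, 56%. Slopes corrected for GC content and transcript length are therefore given wherever they end or add a call. After the correction 4 of 9 genes were called for Poria (SGK1, TSC22D3 and KLF9 higher, CRISPLD2 lower) and 6 of 9 for Atractylodis (SGK1, TSC22D3 and ERRFI1 higher, PER1, CRISPLD2 and FKBP5 lower). Of all 18356 genes tested, 2828 were called for Poria after the correction, where 3815 were before it. For Atractylodis it was 2652, where 3495 were called before.

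**Figure D1:**
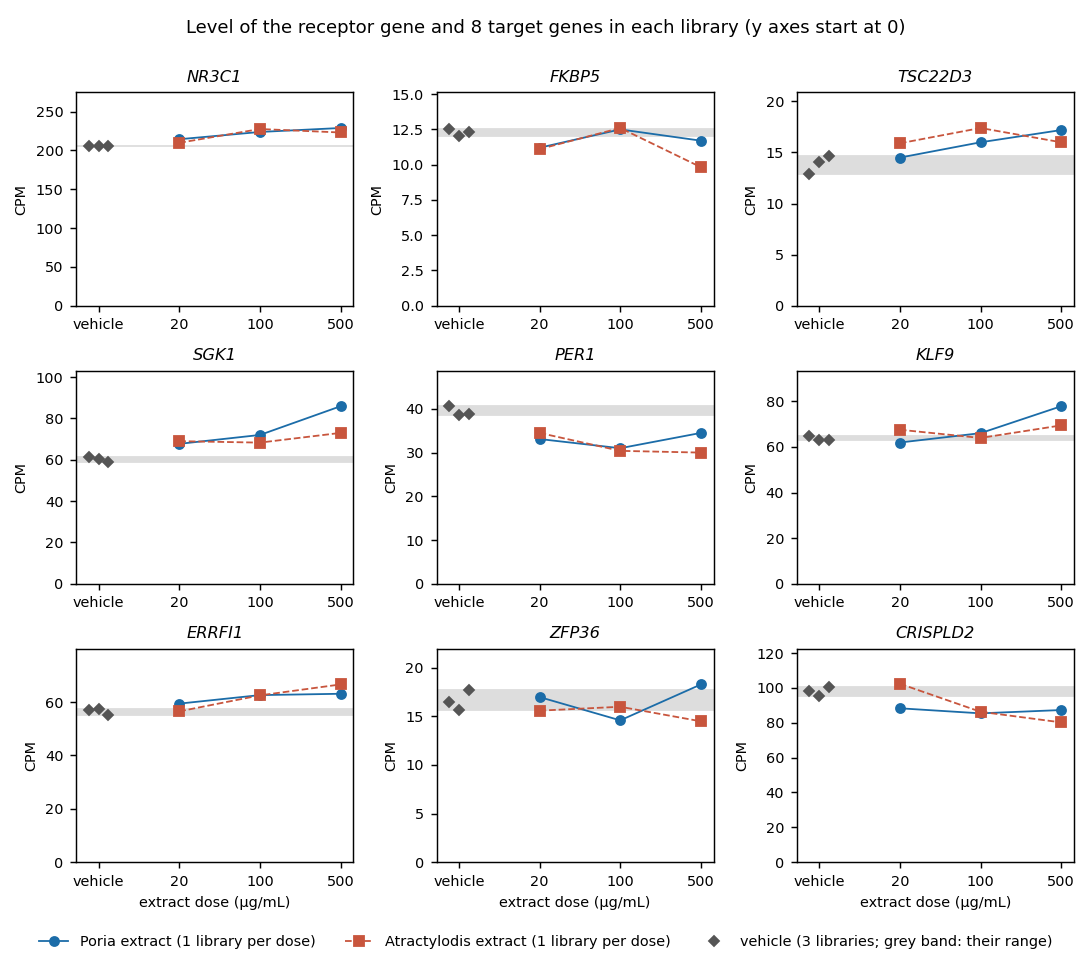
Level of each gene (CPM, y axes from 0) against extract dose (µg/mL) for Poria (blue circles, 1 library per dose), Atractylodis (red squares, 1 library per dose) and vehicle (grey diamonds, 3 libraries, with a grey band over their range). SGK1 lay above the vehicle range in 6 of 6 treated libraries and PER1 below it in 6 of 6.

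NR3C1, the receptor itself (ENSG00000113580, chromosome 5, 143277931 to 143435512, minus strand), had the highest level per length among the 9 genes. Vehicle libraries held 206.0, 205.9 and 206.3 CPM. Poria libraries held 214.5, 223.9 and 229.0 CPM at 20, 100 and 500 µg/mL, and Atractylodis libraries held 209.9, 227.7 and 223.2 CPM. Each of the 6 treated libraries was above the 3 vehicle libraries, at 1.02 to 1.11 times their mean. The vehicle values lay closer together (SD 0.176 CPM) than counting error alone would give, so the gap is better judged by the fitted error than by that band. The slope was 0.05 ± 0.02 for Poria (adjusted p = 0.022) and 0.05 ± 0.02 for Atractylodis (adjusted p = 0.046), and treated against vehicle gave 0.10 ± 0.04 (adjusted p = 0.046). Both slopes became 0.01 after the GC and length correction (adjusted p = 0.68 for Poria and 0.84 for Atractylodis), and treated against vehicle became 0.00 (adjusted p = 0.99), so the receptor's rise did not hold there. With RLE size factors or no filter on low counts, the call for treated against vehicle (adjusted p = 0.052 and 0.059) and the Atractylodis call (0.055 and 0.078) were lost as well. Without any 1 of the vehicle libraries, or without the Poria library at 500 or 100 µg/mL, the Poria call was also lost (adjusted p between 0.06 and 0.11). The Atractylodis call was lost without any 1 vehicle library, Atractylodis at 500 or 100 or Poria at 100 µg/mL (adjusted p between 0.058 and 0.15). The call for treated against vehicle was lost without any 1 library other than Atractylodis at 20 µg/mL (adjusted p between 0.052 and 0.15).

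FKBP5 (ENSG00000096060, chromosome 6, 35573585 to 35728583, minus strand) encodes an HSP90 partner that lowers the receptor's affinity for hormone, and it is among the most strongly hormone-induced genes known in many cells. It had 12.5, 12 and 12.3 CPM in vehicle. With Poria it had 11.2, 12.5 and 11.7 CPM at rising doses, and with Atractylodis 11.1, 12.6 and 9.82 CPM. The treated values lay on both sides of the vehicle range, with the lowest at 500 µg/mL Atractylodis. The slopes were -0.01 ± 0.03 for Poria (95% interval -0.08 to 0.05, adjusted p = 0.81) and -0.07 ± 0.03 for Atractylodis (-0.14 to 0.00, adjusted p = 0.18). Atractylodis at 500 µg/mL against vehicle gave -0.32 ± 0.08 (fold 0.799, adjusted p = 0.0042), and DESeq2, which gave -0.33 ± 0.22 there, returned no adjusted p. The Atractylodis slope passed the test in 2 alternative fits, with the GC and length correction (-0.10 ± 0.03, adjusted p = 0.048) and without Atractylodis at 100 µg/mL (-0.10, adjusted p = 0.047). FKBP5 passed no test as higher in these fits, and the call at 500 µg/mL rests on 1 library whose spread was taken from the vehicle libraries.

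TSC22D3 (ENSG00000157514, chromosome X, 107713221 to 107777342, minus strand) encodes GILZ, a leucine zipper protein that carries part of the anti-inflammatory action of glucocorticoids. It had 12.9, 14.1 and 14.7 CPM in vehicle, 14.5, 16 and 17.2 CPM at 20, 100 and 500 µg/mL Poria, and 15.9, 17.4 and 16 CPM at the same doses of Atractylodis. In 5 of 6 treated libraries the level was above the vehicle range, and Poria at 20 µg/mL lay within it. The slope was 0.09 ± 0.03 for Poria (adjusted p = 0.037) and 0.10 ± 0.03 for Atractylodis (adjusted p = 0.032), and the GC and length correction left both past the test (0.11 ± 0.03 and 0.12 ± 0.03, adjusted p = 0.016 and 0.017). Treated libraries averaged 16.2 ± 1.05 CPM and vehicle libraries 13.9 ± 0.907 CPM (SD, n = 6 and 3), a log2 change of 0.22 ± 0.06 (adjusted p = 0.016). Vehicle replicate 1 was the lowest library, and without it the log2 change was 0.16 (adjusted p = 0.14) and the slopes were 0.07 (Poria, 0.13) and 0.08 (Atractylodis, 0.12). The treated call was also lost without vehicle replicate 2 (adjusted p = 0.051). The Poria slope was lost without vehicle replicate 2, Poria at 100 or Poria at 500 µg/mL (adjusted p = 0.076, 0.076 and 0.3) and with DESeq2 (0.051), and the Atractylodis slope without vehicle replicate 2 or Atractylodis at 100 µg/mL (adjusted p = 0.069 and 0.13). Among the 3 Atractylodis doses the slope was 0.00 ± 0.05, so the higher level there showed no order by dose.

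SGK1 (ENSG00000118515, chromosome 6, 134169246 to 134318112, minus strand) encodes a kinase named for its induction by serum and glucocorticoids, which acts on ion channels and FOXO factors. Vehicle libraries had 61.5, 60.4 and 59.1 CPM. Poria libraries had 67.7, 72.0 and 85.9 CPM at rising doses, and Atractylodis libraries had 69.0, 68.3 and 73.0 CPM. None of the 6 treated libraries overlapped the vehicle range, and the Poria values climbed at each dose. The Poria slope was 0.15 ± 0.02 (adjusted p = 6.9e-05), the largest upward slope of the 9 genes, and it stayed past the test in 14 of 14 alternative fits (adjusted p between 2.1e-12 and 0.039), the GC and length correction and each left-out library included. Within the 3 Poria doses alone the slope was 0.17 ± 0.03 (adjusted p = 0.0032). That slope rests on the top dose, since without Poria at 500 µg/mL it was 0.09 with an adjusted p of 1. The Atractylodis slope was 0.09 ± 0.02 (adjusted p = 0.0029), but within the 3 Atractylodis doses it was 0.04 ± 0.03 (adjusted p = 0.54). Without Atractylodis at 500 µg/mL the Atractylodis slope was 0.11 (adjusted p = 0.051). Treated against vehicle gave 0.27 ± 0.07 (adjusted p = 0.0087), and 0.19 ± 0.07 with the GC and length correction (adjusted p = 0.062).

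KLF9 (ENSG00000119138, chromosome 9, 70384597 to 70414624, minus strand) encodes a zinc finger repressor that is a direct target of the receptor in brain and other tissues. It had 64.6, 63.1 and 62.8 CPM in vehicle, 61.9, 66.0 and 77.8 CPM at 20, 100 and 500 µg/mL Poria, and 67.5, 63.9 and 69.4 CPM at the same doses of Atractylodis. The top Poria dose held the highest of the 9 values. Its log2 difference from vehicle was 0.29 ± 0.04 (fold 1.23, adjusted p = 7.6e-06) with edgeR and 0.29 ± 0.10 (adjusted p = 0.017) with DESeq2, for a single library and so with no replicate of the dose, and the lower doses gave -0.04 ± 0.04 and 0.06 ± 0.04 (adjusted p = 0.63 and 0.4). The Poria slope of 0.08 ± 0.02 (adjusted p = 0.013) became 0.02 (adjusted p = 0.75) without that library, so 1 library decided the call. Within the Poria doses the slope was 0.17 ± 0.03 (adjusted p = 0.0054), and without Poria at 500 or at 20 µg/mL it was 0.09 and 0.24 with adjusted p of 1 and 0.091. The Atractylodis slope was 0.04 ± 0.02 (95% interval -0.00 to 0.09, adjusted p = 0.16).

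PER1 (ENSG00000179094, chromosome 17, 8140472 to 8156506, minus strand) encodes a repressor of the circadian clock, and glucocorticoids induce it within hours in many cells. Here it fell. It had 40.6, 38.6 and 38.8 CPM in vehicle, 33.1, 31.0 and 34.5 CPM at 20, 100 and 500 µg/mL Poria, and 34.5, 30.4 and 30.0 CPM at the same doses of Atractylodis. All 6 treated libraries were below the 3 vehicle libraries, already at the lowest dose. Treated libraries averaged 32.2 ± 2.05 CPM and vehicle libraries 39.4 ± 1.11 CPM (SD, n = 6 and 3), a log2 change of -0.29 ± 0.05 (fold 0.819, adjusted p = 0.00054). This call held in 13 of 13 alternative fits (adjusted p between 7e-07 and 0.0076), and with the GC and length correction the log2 change was -0.20 ± 0.04 (adjusted p = 0.0042). Over dose, the slope was -0.13 ± 0.03 for Atractylodis (adjusted p = 0.0043) and -0.09 ± 0.03 for Poria (adjusted p = 0.032). The Poria slope did not pass with the GC and length correction (-0.05 ± 0.02, adjusted p = 0.19), nor without any 1 vehicle library or Poria at 100 µg/mL (adjusted p between 0.077 and 0.12). Within the 3 Poria doses it was 0.03 ± 0.04 (adjusted p = 0.76), so the Poria difference was a step from vehicle with no further order by dose. The annotation places another gene's exon on the same strand within PER1, and how the counting shared reads between them is not given in the sources used here.

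ERRFI1 (ENSG00000116285, chromosome 1, 8004404 to 8026308, minus strand) encodes MIG6, an inhibitor of the epidermal growth factor receptor. It had 57.1, 57.5 and 55.1 CPM in vehicle, 59.4, 62.6 and 63.1 CPM at rising Poria doses, and 56.5, 62.5 and 66.6 CPM at rising Atractylodis doses. In 5 of 6 treated libraries the level was above the vehicle range, and Atractylodis at 20 µg/mL lay within it. The slope was 0.06 ± 0.02 for Poria (adjusted p = 0.017) and 0.07 ± 0.02 for Atractylodis (adjusted p = 0.0076). The Poria slope was 0.04 ± 0.02 with the GC and length correction (adjusted p = 0.06), and it was lost without vehicle replicate 3, Poria at 500 or Poria at 100 µg/mL (adjusted p = 0.058, 0.055 and 0.058). The Atractylodis slope was lost without Atractylodis at 500 µg/mL (0.06, adjusted p = 0.22). Within the Atractylodis doses the slope was 0.12 ± 0.03 (adjusted p = 0.027), but DESeq2 did not call it (adjusted p = 0.062), and it was lost without Atractylodis at 500 or 20 µg/mL (adjusted p = 0.21 and 0.68).

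CRISPLD2 (ENSG00000103196, chromosome 16, 84819984 to 84920768, plus strand) encodes a secreted protein that glucocorticoids induce in airway smooth muscle and lung. In these cells it fell. It had 98.0, 95.1 and 100.3 CPM in vehicle, 88.3, 85.4 and 87.3 CPM at 20, 100 and 500 µg/mL Poria, and 102.4, 86.3 and 80.2 CPM at the same doses of Atractylodis. With Poria all 3 levels were below the vehicle range and close to each other, whereas with Atractylodis the level was above the range at the lowest dose and below it at the higher doses. The slope was -0.08 ± 0.02 for Poria (adjusted p = 0.021) and -0.09 ± 0.02 for Atractylodis (adjusted p = 0.015). Within the treated doses it was -0.01 ± 0.03 for Poria (adjusted p = 0.94) and -0.18 ± 0.03 for Atractylodis (adjusted p = 0.0014). Leaving out 1 library ended the Poria call (vehicle replicate 3 or Poria at 100 µg/mL, adjusted p = 0.055 and 0.073) and the Atractylodis call (Atractylodis at 500 or 100 µg/mL, adjusted p = 0.36 and 0.055). The slope within the Atractylodis doses was -0.11 (adjusted p = 0.57) without Atractylodis at 20 µg/mL. Exons of CRISPLD2, ERRFI1 and TSC22D3 share bases with genes on the opposite strand, and the strand setting of the counting is not given in the sources used here.

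ZFP36 (ENSG00000128016, chromosome 19, 39406813 to 39409412, plus strand) encodes tristetraprolin, which speeds the decay of cytokine mRNAs. It had 16.5, 15.7 and 17.7 CPM in vehicle, 17, 14.6 and 18.3 CPM at rising Poria doses, and 15.6, 16 and 14.5 CPM at rising Atractylodis doses. The groups overlapped. The slopes were 0.01 ± 0.03 for Poria (95% interval -0.05 to 0.08, adjusted p = 0.81) and -0.05 ± 0.03 for Atractylodis (-0.12 to 0.02, adjusted p = 0.29). At single libraries of 500 µg/mL, Atractylodis against vehicle gave -0.20 ± 0.08 (adjusted p = 0.047), or -0.11 ± 0.08 with the GC and length correction (adjusted p = 0.3). Poria against vehicle gave 0.13 ± 0.07 (adjusted p = 0.17), or 0.25 ± 0.07 with the correction (adjusted p = 0.0089).

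**Figure D2:**
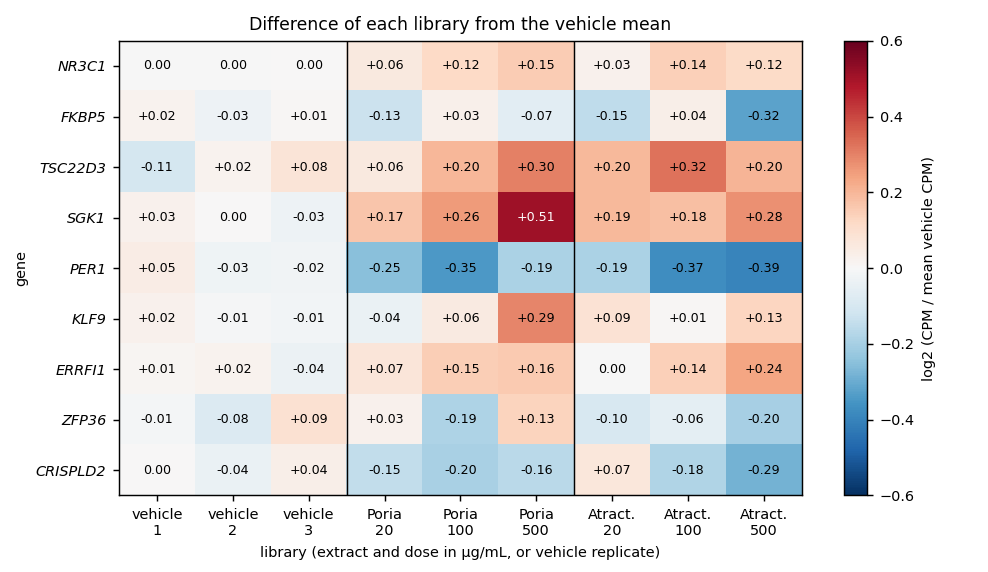
Log2 of each library's CPM over the mean vehicle CPM for the 9 genes (rows) in the 3 vehicle, 3 Poria and 3 Atractylodis libraries (columns, doses in µg/mL), red for higher and blue for lower. SGK1 at 500 µg/mL Poria is the highest value (0.51), and PER1 at 500 µg/mL Atractylodis is the lowest (-0.39).

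Per kilobase of the longest annotated transcript, mean vehicle CPM fell in the order NR3C1 (28.3 ± 0.0242), CRISPLD2 (21.3 ± 0.566), ERRFI1 (18.2 ± 0.403), KLF9 (12.3 ± 0.18), SGK1 (11 ± 0.217), ZFP36 (9.32 ± 0.564), PER1 (8.37 ± 0.235), TSC22D3 (6.14 ± 0.4) and FKBP5 (1.66 ± 0.0292; SD, n = 3). Neighbours in this order differed by more than their SD, though the transcript used in these cells may be shorter. The receptor's own mRNA was thus the most abundant of the 9 and FKBP5 the least.

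No slope of the 9 genes differed between the extracts past the test, while 1.16% of all genes did (0.485% higher and 0.676% lower with Poria). SGK1 differed by 0.06 ± 0.02 (Poria minus Atractylodis, 95% interval 0.02 to 0.10, adjusted p = 0.19 over all genes). ZFP36 differed by 0.07 ± 0.03 (-0.01 to 0.14, adjusted p = 0.44), and KLF9 by 0.03 ± 0.02 (-0.01 to 0.08, adjusted p = 0.57). For the other 6 genes the difference was between -0.01 and 0.05. The 95% intervals of the 9 genes reached up to 0.14 per step for ZFP36, 0.13 for FKBP5 and 0.11 for PER1, and down to -0.07 for TSC22D3. The called slopes themselves ran from -0.13 to 0.15, so the extracts were not shown to act alike.

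Against vehicle, the 6 treated libraries as 1 group showed 3 genes higher (SGK1, TSC22D3 and NR3C1) and 1 lower (PER1). In that fit 25.3% of all genes were called (12% higher and 13.3% lower). With the GC and length correction 2 of these 4 genes passed (TSC22D3 and PER1). The corrected fit called 3944 of the 18356 genes tested (1784 higher and 2160 lower). The 6 treated libraries did not overlap the 3 vehicle libraries for 3 of the 9 genes (NR3C1 and SGK1 above, PER1 below), and the same held for 26.1% of all genes tested (12.4% above and 13.7% below). Within the treated doses alone, SGK1 and KLF9 rose with Poria dose (2.45% of all genes called, 1.2% higher and 1.25% lower), and ERRFI1 rose and CRISPLD2 fell with Atractylodis dose (4.04%, of which 1.5% higher and 2.54% lower). At single doses of 20, 100 and 500 µg/mL, 3, 5 and 7 of the 9 genes were called for Poria, where 19.9%, 25.5% and 31.5% of all genes were (8.42%, 11.2% and 14.4% higher, 11.4%, 14.3% and 17.1% lower). For Atractylodis it was 2, 6 and 9 of the 9 genes, where 17.5%, 25.2% and 31.0% of all genes were called (7.51%, 11.3% and 14.4% higher, 10.0%, 13.9% and 16.6% lower). These single-dose calls depend on the tool. DESeq2 called 0, 0 and 2 of the 9 genes for Poria and 0, 1 and 3 for Atractylodis at 20, 100 and 500 µg/mL, giving no adjusted p for 3 of the 9 genes at each dose, or for 1 at 500 µg/mL Atractylodis.

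**Figure D3:**
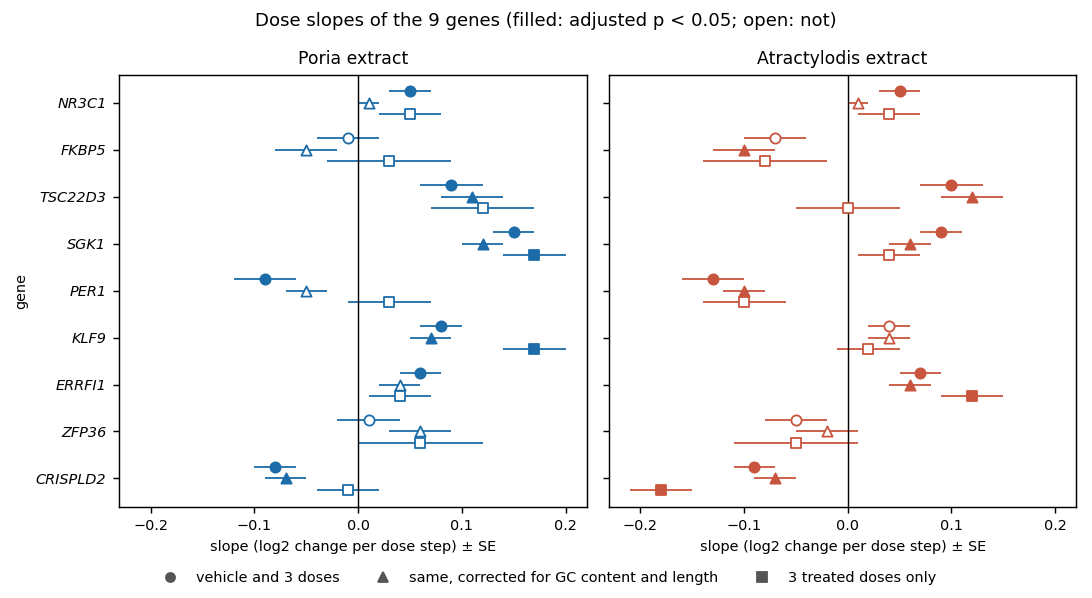
Slope per dose step (log2 change, x axis, ± SE) of the 9 genes for Poria (left) and Atractylodis (right), from vehicle and 3 doses (circles), the same with the GC and length correction (triangles) and the 3 treated doses alone (squares). Filled symbols passed the test; NR3C1 moved from 0.05 to 0.01 with the correction for both extracts, and SGK1 stayed filled in all 3 Poria fits.

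The genes whose levels ran most like SGK1 over the 9 libraries were BBX, CYP1B1 and TTC21B. Likeness is Pearson's r of log2 CPM, compared over 11563 tested genes that averaged 2 or more on that scale, and these libraries share a gap between treated and vehicle that many genes follow. For SGK1 the r was 0.986 with BBX, 0.975 with CYP1B1 and 0.975 with TTC21B. CYP1B1, a target of the aryl hydrocarbon receptor, had 118.0, 118.0 and 110.0 CPM in vehicle, 133.0, 159.0 and 194.0 CPM at rising Poria doses and 154.0, 146.0 and 164.0 CPM at rising Atractylodis doses. TSC22D3 ran most like CEP70 (0.955), CNKSR3 (0.946) and ZNF740 (0.945). FKBP5 had a looser match, with MFSD14B (0.93), CLIC4 (0.924) and DCLRE1B (0.909). The 9 followed genes were left out of this ranking, so none of them could appear in it. Between pairs of them, r ran from -0.959 (ERRFI1 and CRISPLD2) to 0.887 (NR3C1 and ERRFI1).

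Of a wider list of 29 genes that glucocorticoids induce in other cells, 27 were tested. With Poria, where 9.16% of all genes were called higher and 11.6% lower, 4 rose (THBD, DUSP1, BCL6 and IGFBP1) and 7 fell (MT1X, RHOB, MT2A, FOXO3, CEBPD, SNAI2 and PER2). With Atractylodis, where 8.49% of all genes were called higher and 10.5% lower, 5 rose (DDIT4, ANXA1, THBD, BCL6 and FOXO1) and 5 fell (CEBPD, RHOB, MT2A, FOXO3 and PER2). The median slope was 0.04 for Poria and 0.05 for Atractylodis, beside 0.00 for all genes. ANGPTL4 passed neither trend test and did not follow a line. It was lower than vehicle at 20, 100 and 500 µg/mL Poria and at 20 and 100 µg/mL Atractylodis. At 500 µg/mL Atractylodis it was higher, each dose being 1 library. DDIT4, an inhibitor of mTOR signalling, had 53.2, 55.5 and 59.4 CPM in vehicle and 67.7, 75.2 and 89.9 CPM at rising Atractylodis doses (slope 0.21 ± 0.02, adjusted p = 6.1e-05), while with Poria it had 64.1, 65.3 and 61.1 CPM (0.06 ± 0.02, adjusted p = 0.083). MT1X, a metal-binding protein of a family whose near-identical members may share reads, had 20.5, 18.1 and 18.8 CPM in vehicle and 17.6, 14 and 11 CPM at rising Poria doses (slope -0.28 ± 0.04, adjusted p = 0.00047). CEBPD, a transcription factor of acute responses, fell with both extracts (-0.11 ± 0.03 with Poria and -0.15 ± 0.03 with Atractylodis, adjusted p = 0.011 and 0.0022), and its Poria call was lost with the GC and length correction (adjusted p = 0.12). RHOB, a small GTPase, also fell with both (-0.13 ± 0.02 and -0.10 ± 0.02, adjusted p = 0.0007 and 0.004). ZBTB16, which glucocorticoids induce in many cells from a very low level, had 0 counts in each of the 9 libraries, which allows up to 0.0745 CPM in the shallowest (3 counts, counting error only).

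Of 20 genes that glucocorticoids repress in other cells, 15 were tested. In the trend tests CCL2, IL11 and ICAM1 fell with both extracts, IL1B, IL1A and VCAM1 rose with Poria, and none rose with Atractylodis. With Poria that was 3 lower and 3 higher of 15, beside 11.6% and 9.16% of all genes. With Atractylodis it was 3 lower and 0 higher, beside 10.5% and 8.49%. Within the Poria doses CXCL8, PTGS2, IL1B and IL1A rose and IL11 fell (1.2% of all genes higher and 1.25% lower). Within the Atractylodis doses MMP1 rose and CCL2 fell (1.5% and 2.54%). At single libraries, PTGS2 was lower than vehicle at 20 and 100 µg/mL Poria and at each Atractylodis dose. CXCL8 was lower at 20 µg/mL Poria and each Atractylodis dose, and higher at 500 µg/mL Poria. CCL2, a chemokine, had 39.1, 37.7 and 37.0 CPM in vehicle, 22.9, 21.8 and 22.3 CPM at rising Poria doses and 25.8, 20.4 and 17 CPM at rising Atractylodis doses. It was below vehicle in 6 of 6 treated libraries (treated against vehicle -0.81 ± 0.10, adjusted p = 0.00018), and its Atractylodis slope of -0.37 ± 0.06 (adjusted p = 0.0053) was lost without Atractylodis at 500 µg/mL (adjusted p = 0.063). IL11, a cytokine of the IL-6 family, fell by 0.22 ± 0.02 per step with Poria (adjusted p = 3.9e-06) and by 0.10 ± 0.02 with Atractylodis (adjusted p = 0.0016). ICAM1, an adhesion receptor for leukocytes, was lower in treated cells (56.5 ± 2.25 CPM) than in vehicle (71.8 ± 0.957 CPM; log2 change -0.35 ± 0.04, adjusted p = 1.2e-05), but neither slope passed with the GC and length correction (adjusted p = 0.1 for Poria and 0.058 for Atractylodis). Without any 1 vehicle library or the library at 100 µg/mL of the extract in question, the ICAM1 slopes were lost too (adjusted p between 0.082 and 0.089 for Poria and between 0.059 and 0.068 for Atractylodis). IL1B ran the other way with Poria, at 5.38, 6.36 and 8.38 CPM, against 5.66, 6.37 and 5.05 CPM in vehicle (slope 0.18 ± 0.04, adjusted p = 0.0082), and its call was lost without Poria at 500 µg/mL (adjusted p = 0.47).

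Chaperones of the receptor had median slopes of -0.01 with Poria and -0.04 with Atractylodis. Of 18 tested, HSPA8 and DNAJA1 rose and CDC37, PPP5C and DNAJB1 fell with Poria, and CDC37, PPP5C and STIP1 fell with Atractylodis. These 5 and 3 calls of 18 stand beside 20.8% and 19.0% of all genes called. Against vehicle, the treated libraries as 1 group showed 6 of the 18 lower and 1 higher, beside 25.3% of all genes called (13.3% lower). HSPA8, the constitutive HSP70, had 1388.0, 1488.0 and 1605.0 CPM at rising Poria doses, against 1322.0, 1337.0 and 1324.0 CPM in vehicle (slope 0.10 ± 0.02, adjusted p = 0.0014). CDC37, an HSP90 cofactor for kinases, had 194.4, 169.5 and 162.3 CPM at rising Atractylodis doses, against 199.9, 198.3 and 197.8 CPM in vehicle (slope -0.09 ± 0.02, adjusted p = 0.0018, and 0.063 without Atractylodis at 500 µg/mL). PPP5C, a phosphatase of the same complex, and STIP1, which hands clients from HSP70 to HSP90, had Atractylodis slopes of -0.10 ± 0.02 each (adjusted p = 0.0026 and 0.0057), and the PPP5C call was lost without Atractylodis at 500 µg/mL (adjusted p = 0.054). With Poria, CDC37 and PPP5C did not pass with the GC and length correction (adjusted p = 0.34 and 0.13), and PPP5C did not without vehicle replicate 1, vehicle replicate 3 or Poria at 100 µg/mL (adjusted p = 0.083, 0.1 and 0.089). The HSP90 genes HSP90AA1 and HSP90AB1 passed neither trend test, with slopes between -0.05 and 0.02. Both lay below the vehicle range at each Atractylodis dose, 1 library per dose. HSP90AA1 had 1225.0, 1314.0 and 1312.0 CPM at rising doses, against 1420.0, 1484.0 and 1418.0 CPM in vehicle. HSP90AB1 had 1528.0, 1632.0 and 1623.0 CPM, against 1784.0, 1834.0 and 1800.0 CPM. With Poria they had 1357.0, 1422.0 and 1503.0 CPM (HSP90AA1) and 1627.0, 1734.0 and 1876.0 CPM (HSP90AB1) at rising doses. HSP90AB1 was called as rising within the Poria doses. FKBP4, the partner that replaces FKBP5 when hormone binds, was lower in treated libraries (154.0 ± 8.34 CPM) than in vehicle (178.0 ± 3.95 CPM; log2 change -0.21 ± 0.04, adjusted p = 0.0018).

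Of 15 tested coregulators, 1 rose and 3 fell with Poria, and 3 rose and 4 fell with Atractylodis. Of all genes, 20.8% were called with Poria and 19.0% with Atractylodis. The acetyltransferase gene CREBBP (-0.09 ± 0.02 with each extract, adjusted p = 0.0015 each) and the methyltransferase gene CARM1 (-0.07 ± 0.02 with Poria and -0.11 ± 0.02 with Atractylodis, adjusted p = 0.02 and 0.0012) fell with both. The CARM1 Poria call was lost with the GC and length correction (adjusted p = 0.28) and without vehicle replicate 1, vehicle replicate 3 or Poria at 100 µg/mL (adjusted p between 0.064 and 0.079). SMARCA4, a chromatin remodelling ATPase, fell with Atractylodis (-0.10 ± 0.02, adjusted p = 0.0026, and 0.12 without Atractylodis at 500 µg/mL).

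Of the related steroid receptors, the progesterone and oestrogen receptor genes PGR and ESR1 lay between 0.521 and 1.23 CPM in the 9 libraries. NR3C2, the mineralocorticoid receptor that shares ligands and target genes with NR3C1, lay between 0.0796 and 0.272 CPM. None of these 3 tested receptors passed either trend test, and ESR2 was not tested. Enzymes that switch cortisol on and off, HSD11B1 and HSD11B2, were below the filter at 0.0454 to 0.207 CPM. Of the 3 tested genes of ligand supply, ABCB1, an efflux pump that exports steroids, rose with Poria (34.8, 39.0 and 38.0 CPM at rising doses, against 32.8, 30.1 and 30.6 CPM in vehicle; slope 0.10 ± 0.02, adjusted p = 0.0052), and H6PD and SRD5A1 did not pass.

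Early response genes include several that share inducers with SGK1 and ZFP36. Of 17 tested, 3 rose and 4 fell with Poria, and 1 rose and 8 fell with Atractylodis, with median slopes of -0.06 and -0.08, while 20.8% and 19.0% of all genes were called, also more of them lower than higher. EGR1 ran the other way: it had 25.4, 30.0 and 36.4 CPM at rising Poria doses and 26.7, 26.6 and 26.7 CPM with Atractylodis, against 19.6, 21.3 and 18.4 CPM in vehicle (slopes 0.27 ± 0.03 and 0.16 ± 0.03, adjusted p = 0.00012 and 0.0052). SRF, the factor that drives many of them, fell with both (-0.12 ± 0.02 and -0.14 ± 0.02, adjusted p = 0.0019 and 0.0011), as did JUNB (-0.11 ± 0.02 and -0.12 ± 0.02, adjusted p = 0.0046 and 0.0041), whose Poria call was lost with the GC and length correction (adjusted p = 0.081). Among 14 tested paralogs, 1 rose and 4 fell with each extract, beside the same 20.8% and 19.0% of all genes. KLF13, a relative of KLF9, fell with Poria (-0.09 ± 0.02, adjusted p = 0.01). With Atractylodis, ZFP36L2 (-0.09 ± 0.03, adjusted p = 0.017) and TSC22D2 (-0.08 ± 0.02, adjusted p = 0.024) fell and TSC22D1 rose (0.06 ± 0.02, adjusted p = 0.021), and each of these 3 calls was lost without Atractylodis at 500 µg/mL (adjusted p = 0.12, 0.15 and 0.31). ZFP36L2 and TSC22D1 were also lost without vehicle replicate 2 or 3 (adjusted p between 0.052 and 0.068), and TSC22D2 without any 1 vehicle library or Atractylodis at 100 µg/mL (adjusted p between 0.055 and 0.078). ZFP36L2 did not pass with the GC and length correction (adjusted p = 0.084). ZFP36L1, the nearest relative of ZFP36 in function, was lower in treated libraries (244.0 ± 13 CPM) than in vehicle (311.0 ± 8.26 CPM; log2 change -0.35 ± 0.04, adjusted p = 2.6e-05), and PER3 was higher (53.0 ± 1.77 CPM treated, 44.3 ± 2.31 CPM vehicle; 0.26 ± 0.04, adjusted p = 0.00033) where PER1 and PER2 were lower. ZFP36L1, PER3, FKBP4, ZBTB16, ANGPTL4, PTGS2, CXCL8, MMP1 and the HSP90 genes were chosen after their values were seen.

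As a check of the cell label, the astrocyte markers SOX9, GJA1 and SLC1A3 were expressed, while GFAP, S100B, AQP4, SLC1A2 and ALDH1L1 were below 1 CPM in all 9 libraries. The 8 astrocyte markers summed to 293.0 to 331.0 CPM with Poria, 332.0 to 346.0 CPM with Atractylodis and 357.0 to 366.0 CPM in vehicle. SOX9 fell with both extracts (slopes -0.16 ± 0.02 and -0.11 ± 0.02, adjusted p = 6.6e-05 and 0.00084), while SLC1A3 rose with both (0.09 ± 0.03 and 0.11 ± 0.03, adjusted p = 0.028 and 0.007), its Poria call being lost with the GC and length correction (0.075) and without any 1 vehicle library or Poria at 100 µg/mL (adjusted p between 0.068 and 0.098). The 8 mesenchymal markers summed to 10600 to 11900 CPM with Poria, 11500 to 12100 CPM with Atractylodis and 12700 to 12900 CPM in vehicle. Of them, 5 fell with Poria and 4 with Atractylodis, while 11.6% and 10.5% of all genes were called lower. The 8 myeloid markers summed to 11 to 15.4 CPM in treated and 12 to 12.6 CPM in vehicle libraries, the 6 epithelial markers to 2.45 to 3.05 and 2.55 to 3.36 CPM, the 6 endothelial markers to 33.3 to 41.4 and 30.3 to 32.9 CPM, and the 8 neuronal markers to 135.0 to 164.0 and 152.0 to 153.0 CPM. KDR was the endothelial marker that rose (0.13 ± 0.02 with Poria, adjusted p = 0.00038), with VWF, CDH5 and CLDN5 below 1 CPM. The 13 mitochondrial mRNAs made up between 4.262% and 5.461% of counts, and none passed either trend test. At single doses of 20, 100 and 500 µg/mL, 0, 9 and 3 of them were called lower with Poria and 8, 0 and 7 with Atractylodis, and 2 were called higher, at 20 µg/mL Poria. Of all genes, 11.4%, 14.3% and 17.1% were called lower at these Poria doses and 10.0%, 13.9% and 16.6% at these Atractylodis doses. The part of these shifts in markers and mitochondrial mRNAs in the results for the 9 genes was not tested.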

How the data were processed

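RNA was extracted from SW1783 cells and sequenced as 100 bp paired-end reads from MGIEasy directional libraries, per the labels' protocols. Per the submitters' processing notes, FastQC 0.11.9, Trim Galore 0.6.5, STAR 2.7.3a and RSEM 1.3.3 were used with GRCh38. Neither annotation release nor strand setting was found in the sources used here. The authors deposited RSEM expected counts, which were rounded to whole numbers. Of the table's columns, 270 matched no sample here and were not used.

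edgeR 4.0.16 (R 4.3.3) used TMM factors, a filter on low counts (count minimum 10, total 15) that left 18356 genes, and robust quasi-likelihood fits with Benjamini-Hochberg adjustment at 0.05, tested on simulated data. The SE was taken as the log2 change over the square root of F. The 4 designs were a trend over dose steps, slopes within treated libraries, treated against vehicle and each dose against vehicle. Alternatives were DESeq2 1.42.0, RLE size factors, no filter, dose in µg/mL, a GC content and length correction (splines with 5 df) and leaving out each library. The 9 genes and all lists were chosen with earlier results of these data known. Besides the 9, the text names up to 4 genes per list with the smallest trend p among those called, tested receptor relatives and ligand genes, and 3 most similar genes for FKBP5, TSC22D3 and SGK1. Positions and transcript lengths are from GENCODE 29 (GRCh38). Vehicle libraries differed beyond sampling noise. Counting errors and floors cover counting error only. Some results are not reported here.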

Additional observations from a re-analysis of the deposited data

Results flagged for a closer look

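None of the 9 genes had slopes that differed between the extracts past the test, but 5 genes of the comparison lists did. In each case the difference itself was tested with edgeR's quasi-likelihood test on the Poria minus Atractylodis slope. DDIT4 differed by -0.15 ± 0.02 per step (adjusted p = 0.0072), being higher with Atractylodis. MT1X differed by -0.21 ± 0.04 (adjusted p = 0.031) and IL11 by -0.12 ± 0.02 (adjusted p = 0.012), both with the lower slope for Poria. Within the treated doses alone MT1X fell with each extract. With Atractylodis it was higher than vehicle at 20 µg/mL and lower at 500 µg/mL, 1 library each. PPARGC1A, a coactivator gene, differed by -0.48 ± 0.09 (adjusted p = 0.012), with 1.16, 1.15 and 0.697 CPM at rising Poria doses, 1.68, 2.01 and 2.12 CPM at rising Atractylodis doses, and 1.49, 1.04 and 1.06 CPM in vehicle. CCN1, an early response gene of the extracellular matrix, differed by 0.22 ± 0.03 (adjusted p = 0.0032), with 415.8, 385.3 and 519.6 CPM at rising Poria doses, 339.8, 324.2 and 312.6 CPM at rising Atractylodis doses, and 369.6, 362.6 and 369.3 CPM in vehicle. With the GC and length correction all 5 differences stayed past the test (adjusted p = 0.037, 0.047, 0.016, 0.013 and 0.0054 for DDIT4, MT1X, IL11, PPARGC1A and CCN1). No gene of the whole table was called for this difference when Poria at 500 or Atractylodis at 500 µg/mL was left out. PPARGC1A was chosen after its values were seen.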

How the results depend on the processing

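No pairing by replicate number was possible because the groups compared share fewer than 2 replicate numbers. A pairing of the extracts by dose is not reported here. Each dose of each extract is 1 library, so dose and library cannot be told apart.

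For the 9 genes, the count called in the Poria trend was 7, and it was 4 with the GC and length correction, 1 with dose in µg/mL, and 2 to 7 with 1 library left out. For Atractylodis it was 6, and it was 0 with dose in µg/mL and 2 to 6 with 1 library left out. Treated against vehicle gave 4, and 2 with the GC correction and 2 to 6 with 1 library left out. Within the treated doses the 2 calls of each extract became 0 to 2 with 1 library left out, and the Atractylodis calls became 0 with dose in µg/mL. At 100 µg/mL Atractylodis the 6 calls became 3 with the GC correction, while over all genes 4631 calls became 3483. Leaving out 1 library gave 1 to 3 at 20 µg/mL Atractylodis, 7 to 9 at 500 µg/mL Atractylodis and 4 to 7 at 100 µg/mL Poria.

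Over all genes, the Poria trend called 3815. It called 2828 with the GC correction, 125 with dose in µg/mL and 2552 to 4242 with 1 library left out. The Atractylodis trend called 3495, and in the same order 2652, 67 and 1035 to 4297. The difference called 213, and 555 with no filter, 54 with dose in µg/mL, 339 with DESeq2 and 0 to 300 with 1 library left out. Treated against vehicle called 4639, and 3944 with the GC correction and 2986 to 5353 with 1 library left out. Within Poria doses it was 449, and 685 with no filter, 240 with DESeq2 and 16 to 657 with 1 library left out. Within Atractylodis doses it was 742, and 488 with the GC correction, 269 with dose in µg/mL and 102 to 1196 with 1 library left out. DESeq2 called 682, 1079 and 1483 genes at 20, 100 and 500 µg/mL Poria, where edgeR called 3647, 4689 and 5788, and 532, 1092 and 1579 for Atractylodis, where edgeR called 3213, 4631 and 5692. The causes were not tested. Of the 9 genes, DESeq2 called 0, 0 and 2 at the Poria doses and 0, 1 and 3 at the Atractylodis doses, and 2 and 1 within the Poria and Atractylodis doses. It gave no adjusted p for 3 of the 9 genes in these fits, or for 1 at 500 µg/mL Atractylodis.

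Single doses aside, the sign of single genes turned in 27 comparisons, none past the test in either fit. With 1 library left out, the ZFP36 Poria slope ran from -0.08 to 0.04 and the FKBP5 Atractylodis slope from -0.10 to 0.00. The differences between extracts ran from -0.01 to 0.02 for NR3C1, -0.01 to 0.09 for FKBP5, -0.07 to 0.02 for TSC22D3, -0.03 to 0.08 for PER1, -0.02 to 0.05 for KLF9, -0.02 to 0.00 for ERRFI1, -0.01 to 0.10 for ZFP36 and -0.03 to 0.02 for CRISPLD2. Slopes within Poria ran from -0.09 to 0.16 for FKBP5, -0.09 to 0.16 for PER1, -0.21 to 0.32 for ZFP36 and -0.05 to 0.03 for CRISPLD2. Slopes within Atractylodis ran from -0.03 to 0.12 for NR3C1, -0.36 to 0.19 for FKBP5, -0.12 to 0.13 for TSC22D3, -0.02 to 0.10 for SGK1, -0.08 to 0.12 for KLF9 and -0.14 to 0.04 for ZFP36. With dose in µg/mL (per 100 µg/mL), the TSC22D3 difference was 0.01, its slope within Atractylodis -0.01, and the CRISPLD2 slope within Poria 0.00. ZFP36 was 0.03 for treated against vehicle with the GC correction. At single doses the GC correction turned 6 further signs, none past the test: NR3C1 to -0.04 at 20 µg/mL Poria and -0.02 at 20 µg/mL Atractylodis, FKBP5 to -0.06 at 100 µg/mL Poria and -0.07 at 100 µg/mL Atractylodis, and KLF9 to -0.02 and ZFP36 to 0.05 at 100 µg/mL Atractylodis.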
